A study of Mus musculus with 3 samples.

Results

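The phagocyte NADPH oxidase was examined at the mRNA level in mouse bone marrow (BM) after injection of LECT2 (leukocyte cell-derived chemotaxin 2), a secreted protein that the study tested as a regulator of haematopoietic stem cells. The 5 subunit genes Cybb, Cyba, Ncf1, Ncf4 and Rac2 were picked by their symbols among 17250 gene names, and each had exactly 1 row. The libraries came from BM cells flushed out of the long bones and pelvis of C57BL/6 mice aged 6 to 8 weeks, male according to the methods. The 0-day group has no injection in its labels, and the 3-day and 5-day groups received recombinant LECT2, made in Chinese hamster ovary cells, under the skin at 300 μg per kg body weight once a day for 3 or 5 days. No genetic change was labelled in any group. Each time point was 1 library, without replicates, and the number of mice behind a library is not given in the sources used here. No difference between time points therefore has a replicate check, and no test between time points was possible.

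The oxidase is the enzyme with which neutrophils, monocytes, macrophages and eosinophils make superoxide in the respiratory burst. Cybb encodes gp91phox, the catalytic subunit that carries electrons across the membrane, and Cyba encodes p22phox, its membrane partner. Ncf1 (p47phox) and Ncf4 (p40phox) encode cytosolic subunits that join the membrane subunits on activation, together with the small GTPase Rac2. In BM these genes are transcribed in maturing neutrophils and in monocytes, and loss of the oxidase in humans causes chronic granulomatous disease.

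On genes, 15523952 reads were counted in the 0-day library, 15146983 in the 3-day library and 15514673 in the 5-day library. Levels are given as the deposited RPKM, that is reads per kilobase of transcript, scaled to all reads on genes. The share of reads on the 10 most-read genes was 12.5%, 10.4% and 5.38% at 0, 3 and 5 days, and since RPKM is a share of the reads, this composition bears on the RPKM of all other genes. Against 0 days, the log2 ratios of the 11144 genes that averaged 1 RPKM or more had medians of 0.10 (3 days) and 0.31 (5 days). After scaling by trimmed mean of M values (TMM), which sets the bulk of genes level, these medians were 0.02 and 0.01. The ratio also ran with transcript length. Over deciles of the genes ordered by length, the median log2 ratio at 5 days went from -0.43 in the shortest to 0.85 in the longest. Each ratio of a subunit is therefore given on the deposited scale, with TMM and after removal of the length trend.

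The subunit genes lie on 4 chromosomes. In GENCODE M21 (GRCm38; the submitters' processing notes name mm8 for the deposited tables, and no coordinates were moved between builds), Cybb spans chromosome X from 9435252 to 9487771 on the minus strand, and its longest transcript has 13 exons. Cyba lies on chromosome 8 from 122424776 to 122432930, minus strand, with 6 exons. Ncf1 lies on chromosome 5 from 134220053 to 134229625, minus strand, with 10 exons. Ncf4 (plus strand, 78244801 to 78262580, 10 exons) and Rac2 (minus strand, 78559167 to 78572783, 7 exons) are both on chromosome 15. The Cyba span lies inside that of Gm20388 on the opposite strand, and the 3′ end of Ncf1 overlaps Gtf2ird2 on the opposite strand. Whether strand was used in counting is not given in the sources used here. The kit does not mark strand, so reads from sequence that overlapping genes share cannot be told apart. Of the 695 possible 50-base words of the Cyba transcript, 0 occurred in another gene. Gtf2ird2 itself had 472, 489 and 461 reads at 0, 3 and 5 days, against 19622, 20428 and 10995 for Ncf1.

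The promoters of the 3 members with a RefSeq window (GRCm38.p6) are shown to compare the 2 membrane subunits, which form 1 heterodimer, with a cytosolic subunit. The 250 bases before the annotated start are printed 5′ to 3′ on the strand of the gene, with motif matches in capitals. The motifs searched were GAGGAA (the core of PU.1 sites), CCAAT (the CCAAT box) and GGGCGG (the GC box), on both strands.
Cybb, chrX:9469325-9469574, minus strand: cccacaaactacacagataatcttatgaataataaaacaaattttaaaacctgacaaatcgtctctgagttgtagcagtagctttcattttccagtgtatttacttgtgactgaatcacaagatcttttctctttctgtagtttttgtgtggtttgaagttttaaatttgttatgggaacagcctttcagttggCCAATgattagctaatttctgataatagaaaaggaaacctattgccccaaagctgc
Cyba, chr8:122432941-122433190, minus strand: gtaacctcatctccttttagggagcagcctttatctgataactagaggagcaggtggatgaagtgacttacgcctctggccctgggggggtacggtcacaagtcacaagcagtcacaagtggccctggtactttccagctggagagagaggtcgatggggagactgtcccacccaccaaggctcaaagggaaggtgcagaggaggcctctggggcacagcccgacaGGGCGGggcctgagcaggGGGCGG
Ncf1, chr5:134229626-134229875, minus strand: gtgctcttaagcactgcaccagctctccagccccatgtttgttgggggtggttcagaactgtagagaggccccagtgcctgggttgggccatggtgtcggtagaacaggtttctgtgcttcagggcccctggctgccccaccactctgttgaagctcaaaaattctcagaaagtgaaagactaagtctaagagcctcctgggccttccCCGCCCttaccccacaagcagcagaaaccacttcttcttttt
The Cybb window was 34% G and C and held 1 CCAAT, from 56 to 52 bases before the start. The Cyba window was 60% G and C and held GGGCGG at 24 to 19 bases and again at 6 to 1 bases before the start. The Ncf1 window was 54.4% G and C and held 1 GC box, on the other strand (CCGCCC), 42 to 37 bases before the start. GAGGAA was not found in any of the 3. Of 32851 windows of this length, 23.3% held GAGGAA, 33.8% CCAAT and 32.7% GGGCGG, so the matches are common letters and are given as a description. The start used for Cybb lies within the longer GENCODE span of the gene. Ncf4 and Rac2 are named only.

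All 5 subunits were among the abundant mRNAs of BM. In every library each of them ranked above 97.0% of the genes with reads. Together they took 0.524%, 0.555% and 0.385% of the reads at 0, 3 and 5 days, that is 81382, 84119 and 59734 reads. By deposited RPKM, Cybb, Ncf1, Ncf4 and Rac2 were highest at 3 days, Cyba was highest at 0 days, and each of the 5 was lowest at 5 days. With TMM, Rac2 too was highest at 0 days (564 against 543 RPKM at 3 days).

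The membrane subunits Cybb and Cyba differed in their course. Cybb had 26790, 30233 and 22478 reads at 0, 3 and 5 days, or 363, 420 and 305 RPKM. Cyba had 7060, 5076 and 4340 reads, or 595, 439 and 366 RPKM. Cybb was thus high at 3 days and low at 5 days, whereas Cyba was lower at each step. The log2 ratio of Cybb was 0.21 at 3 days against 0 days, with a 95% interval from 0.19 to 0.23 (exact Clopper-Pearson interval of the 2 counts). This interval covers counting error only, since each time point was 1 library. It also treats reads as independent, whereas reads copied by PCR carry no molecular identifier and need not be separate molecules. At 5 days against 0 days the log2 ratio of Cybb was -0.25 (interval -0.28 to -0.23). For Cyba it was -0.44 (interval -0.49 to -0.39) at 3 days and -0.70 (interval -0.76 to -0.65) at 5 days. With TMM, Cybb was at 0.13 and -0.56 and Cyba at -0.52 and -1.01.

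The pair differs in transcript length, Cybb being long (4752 bases in the table) and Cyba short (764 bases). Genes in the length decile of Cyba had median ratios of -0.49 (3 days) and -0.43 (5 days), and those in the decile of Cybb had 0.42 and 0.66. After removal of the length trend, Cyba was at 0.04 at 3 days and -0.30 at 5 days, and Cybb was at -0.16 and -0.89. At 3 days Cyba was thus close to other transcripts of its length, and the direction of Cybb at 3 days turned with this setting. The order at 5 days turned too, with Cybb the lower of the pair. Both membrane subunits were below 0 days at 5 days under all 3 settings.

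**Figure D1:**
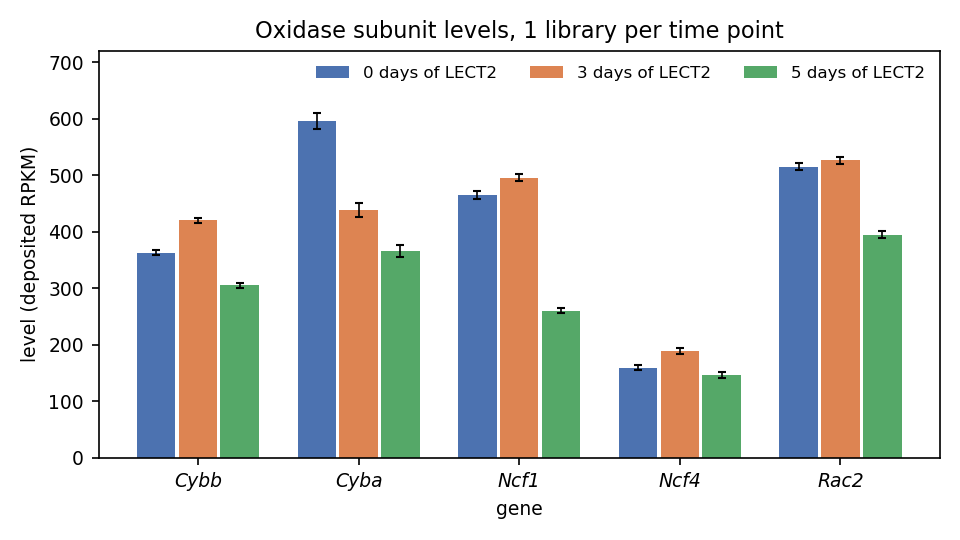
Level of each oxidase subunit in the 3 libraries, with the gene on the x axis and deposited RPKM on the y axis. Bars are single libraries at 0, 3 and 5 days of LECT2 and error bars are 95% Poisson intervals of the read count. The 5-day bar is the lowest of each gene, and Ncf1 goes from 496 RPKM at 3 days to 260 at 5 days.

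Among the cytosolic subunits, Ncf1 had the widest range. Ncf1, the organizer that carries the activating phosphorylation sites, had 465, 496 and 260 RPKM at 0, 3 and 5 days. Its 5-day level was 56.1% of the 0-day level and 52.6% of the 3-day level. The log2 ratio was 0.09 (interval 0.07 to 0.12) at 3 days and -0.83 (interval -0.87 to -0.80) at 5 days against 0 days, and -0.93 at 5 days against 3 days. With TMM the values were 0.01, -1.14 and -1.15, and after length removal -0.03, -1.21 and -1.19. The 5-day value of Ncf1 was thus the lowest of the 5 subunits under every one of these settings, and the 3-day value stayed near 0. Of the possible 50-base words of its transcript, 5.65% occurred in another gene, 144 of them in Gtf2ird2, so a small part of its reads is uncertain.

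Ncf4, the adaptor that binds phosphatidylinositol 3-phosphate on phagosomes, stood at lower levels, with the highest 3-day ratio of the 5 subunits and, on the deposited scale, the 5-day ratio closest to 0. It had 3628, 4188 and 3317 reads, or 160, 189 and 146 RPKM. Its log2 ratio was 0.24 (interval 0.18 to 0.31) at 3 days and -0.13 (interval -0.20 to -0.06) at 5 days. With TMM these were 0.16 and -0.44. After length removal they were 0.44 and -0.13, so Ncf4 was higher than at 0 days at 3 days and lower at 5 days under all 3 settings.

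Rac2 is the haematopoietic Rac GTPase, and Rac1 is its ubiquitous relative. Rac2 had 24282, 24194 and 18604 reads, or 515, 526 and 395 RPKM. Its log2 ratio was 0.03 (interval 0.00 to 0.06) at 3 days and -0.38 (interval -0.41 to -0.36) at 5 days. With TMM the 3-day value was -0.05 and after length removal -0.14, so the sign of this small difference depended on the setting. The 5-day value was -0.69 with TMM and -0.82 after length removal.

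**Figure D2:**
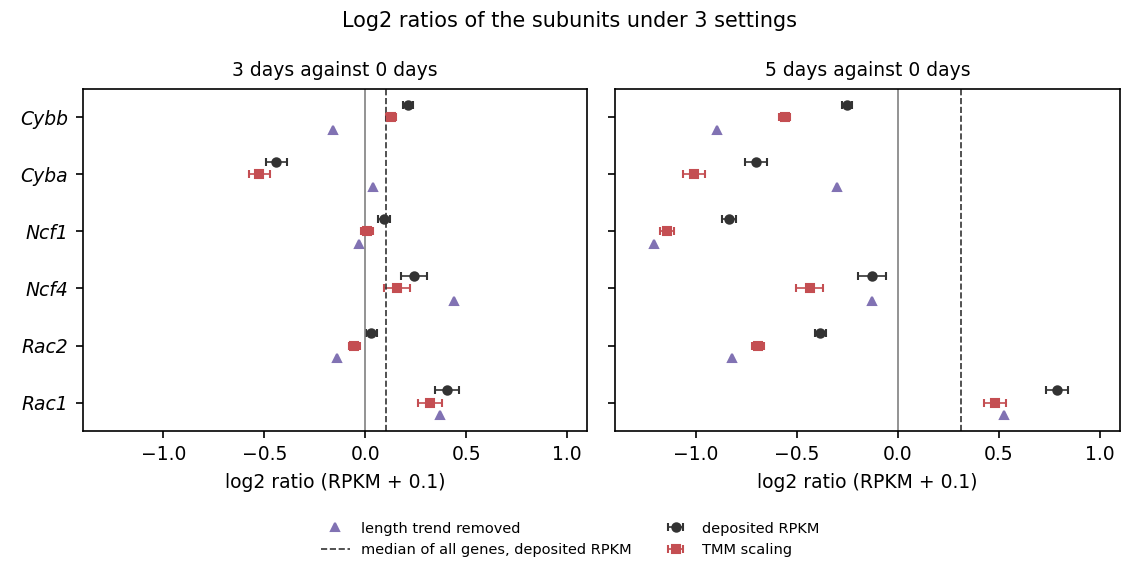
Log2 ratio of RPKM + 0.1 for the 5 subunits and Rac1, at 3 days (left) and 5 days (right) against 0 days. Circles are deposited RPKM, squares TMM, both with 95% intervals of the counts, triangles the values after removal of the length trend, and the dashed line the median of all genes (0.10 and 0.31); at 5 days every symbol of the 5 subunits is left of 0.

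The 5 subunits as a set were compared with all genes by medians and counts. At 3 days, 4 were higher and 1 lower than at 0 days, and their median was 0.09 beside 0.10 over all genes, of which 42.3% were lower. With TMM 3 were higher and 2 lower, beside 48.7% of all genes lower, and after length removal 2 and 3, beside 49.8%. At 5 days all 5 were lower than at 0 days under each of the 3 settings, with a deposited median of -0.38 beside 0.31 over all genes. Of all genes 32.4% were lower at 5 days on the deposited scale, 49.5% with TMM and 49.9% after length removal. Against 3 days they were again all lower, with a median of -0.41 beside 0.25, where 27.1% of all genes were lower on the deposited scale, 47.3% with TMM and 50.2% after length removal. These comparisons share libraries and are not independent. With TMM the medians of the subunits were 0.01, -0.69 and -0.64, beside 0.02, 0.01 and 0.03 over all genes.

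None of the 5 subunits passed 2-fold in either direction on the deposited scale. Of all genes with at least 1 RPKM in either library, 4.08% were higher by 2-fold or more and 2.41% lower by 2-fold or more at 3 days against 0 days. At 5 days against 0 days these shares were 15.5% and 5.91%, and at 5 days against 3 days 1.95% and 3.45%. With TMM, 2 of the 5, Ncf1 and Cyba, were at least 2-fold lower at 5 days against 0 days, where the share of all genes was 9.92%. Against 3 days 1 of the 5, Ncf1, was at least 2-fold lower, where the share was 4.83%. After length removal Ncf1 was the 1 subunit at least 2-fold lower, with 7.61% of all genes against 0 days and 4.93% against 3 days.

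The order of the subunit levels by deposited RPKM changed with time. At 0 days it was Cyba, Rac2, Ncf1, Cybb and Ncf4, from 595 down to 160 RPKM, and the 95% Poisson intervals of neighbours did not overlap. At 3 days it was Rac2, Ncf1, Cyba, Cybb and Ncf4. Cyba (426.6 to 450.9) and Cybb (415.3 to 424.8) were the closest neighbours there. The place of Cyba at 3 days depended on the setting, as its log2 change relative to Rac2 was -0.47, or 0.18 after length removal, and relative to Ncf1 -0.53, or 0.07. At 5 days it was Rac2, Cyba, Cybb, Ncf1 and Ncf4, from 395 to 146 RPKM. By deposited RPKM, Rac2 and Cyba led at 5 days, and Ncf1 had moved from above Cybb to below it. Neither change of order held after length removal, where the log2 change at 5 days turned from -0.32 to 0.52 for Cyba relative to Rac2, and was 0.31 in place of 0.58 for Cybb relative to Ncf1, smaller than the 0-day log2 ratio of -0.36 between them. Such intervals hold counting error only, so the spread between mice that lies behind this order is unknown.

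Ratios of subunits within a library do not depend on how the library is scaled. The Rac2:Rac1 ratio had the widest range of the pairs computed. Rac1 had 4128, 5333 and 7130 reads, or 116, 154 and 201 RPKM, and was higher at each step while Rac2 was lowest at 5 days. The Rac2:Rac1 ratio of RPKM was 4.43 at 0 days, 3.41 at 3 days and 1.96 at 5 days. On the log2 scale it differed by -0.37 (interval -0.44 to -0.31) at 3 days and by -1.17 (interval -1.23 to -1.11) at 5 days, and by -1.35 at 5 days after length removal. Of the 50-base words of Rac1, 18.1% also occur in the overlapping Daglb, so part of its reads is uncertain.

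Ncf1 was lower relative to Ncf4 and to Rac2 at 5 days. The Ncf1:Ncf4 ratio was 2.91, 2.62 and 1.78 at 0, 3 and 5 days, a log2 change of -0.71 (interval -0.78 to -0.63) at 5 days. The Ncf1:Rac2 ratio was 0.902, 0.942 and 0.659, a log2 change of -0.45 (interval -0.50 to -0.41) at 5 days. Both stayed below 0 after length removal, at -1.08 and -0.39.

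Cybb and Ncf4 kept the steadiest ratio on the deposited scale. The Cybb:Ncf4 ratio was 2.27, 2.22 and 2.09, with a log2 change of -0.03 at 3 days whose interval, -0.10 to 0.04, included 0. These genes differ in length (4752 and 1463 bases), and after length removal the changes were -0.60 and -0.77. The Cybb:Rac2 ratio was 0.705, 0.798 and 0.772, with log2 changes of 0.18 and 0.13 that were -0.02 and -0.08 after length removal. The Cybb:Cyba ratio was 0.610, 0.958 and 0.833, and its log2 changes of 0.65 at 3 days and 0.45 at 5 days turned to -0.20 and -0.59. All 8 changes of sign among the 30 comparisons of subunit pairs concerned pairs with Cybb or Cyba. Ncf1 and Rac2 (2721 and 3036 bases) lie in the same length decile.

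**Figure D3:**
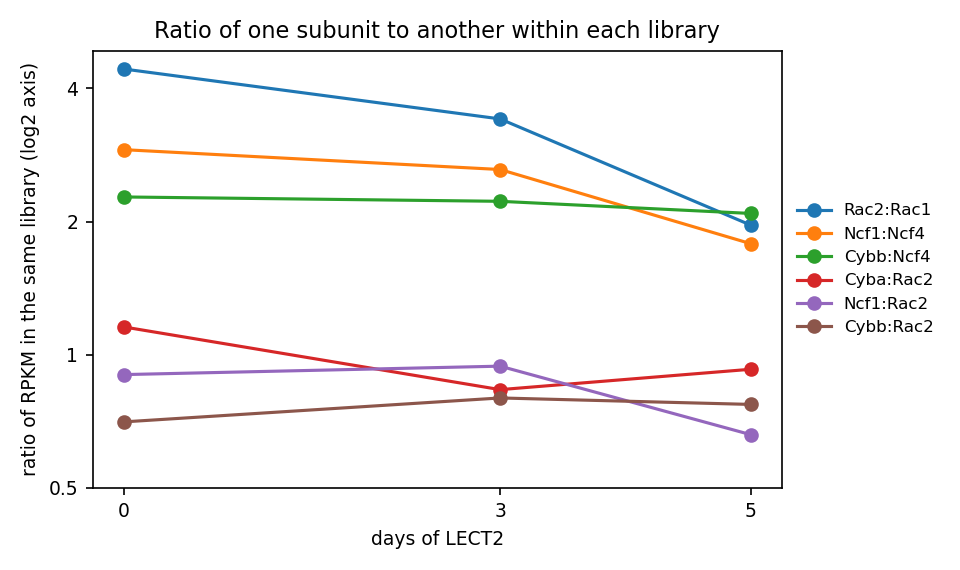
Ratio of the RPKM of one subunit to another in the same library (log2 y axis) against days of LECT2 (x axis). Each point is 1 library, and lines join the same pair. The Rac2:Rac1 line goes from 4.43 to 1.96, and the Cybb:Ncf4 line stays between 2.27 and 2.09.

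The other oxidase components were few. Of 12 listed genes 9 had a row, and 2 averaged 1 RPKM or more, namely Rac1 and Hvcn1. Hvcn1, the voltage-gated proton channel that sustains the burst, was at 114, 109 and 99.8 RPKM. Catalytic subunits and partners of the non-phagocytic oxidases were close to absent. Nox1 had 0, 1 and 2 reads, Nox4 had 2, 0 and 0, Noxa1 had 2, 0 and 0, Duox1 had 0, 0 and 1 and Duox2 had 0, 1 and 0. Noxo1 had 25, 25 and 35 reads. BC017643 (Cybc1), whose product is needed for the Cybb protein to be made, had 0, 5 and 1 reads, at or near the floor of 3 reads, so no fold is given.

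Genes around the oxidase were described by lists, each with its count and median. Some genes stand in more than 1 list, so the lists are not separate observations. Their counts at 5 days stand beside 15.5% of all genes higher and 5.91% lower by 2-fold or more on the deposited scale. These shares were 7.24% and 9.92% with TMM, and 5.05% and 7.61% after length removal. Of the receptors that trigger the burst, 19 of 20 averaged 1 RPKM or more, and their log2 ratios had a median of 0.56 at 3 days and of 0.00 at 5 days. At 5 days 3 of the 19 passed 2-fold upwards and 6 downwards, and with TMM 0 and 6, with a median of -0.31. The receptors for formyl peptides and for complement C5a were among the lower ones. Fpr1 had 73.7, 92.6 and 11.7 RPKM at 0, 3 and 5 days. Fpr2 had 292, 255 and 61.2, and C5ar1 had 106, 94.8 and 20.4. Their log2 ratios at 5 days were -2.65, -2.25 and -2.36, below that of any subunit. The adhesion receptor genes Itgam and Itgb2, which together encode the integrin Mac-1, were highest at 3 days and, on the deposited scale, close to the 0-day level at 5 days. Itgam had 165, 269 and 160 RPKM and Itgb2 had 271, 401 and 273. With TMM their 5-day log2 ratios were -0.36 and -0.30, and after length removal -0.68 and -0.39.

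Rac regulators and kinases upstream of the oxidase formed the list with the most genes, and all 28 averaged 1 RPKM or more. Their ratios had medians of 0.50 (3 days) and 0.54 (5 days), and at 5 days 4 passed 2-fold upwards and 0 downwards. These counts were 2 and 0 with TMM and 1 and 1 after length removal. The 5-day median was 0.23 with TMM and -0.05 after length removal, so the direction of this list depended on the setting. The Rac exchange factor Tiam1 had 6.68, 13.6 and 20.9 RPKM, and its log2 ratio at 5 days was 1.63 (0.81 after length removal). Vav2, another exchange factor, had 3.66, 6.57 and 7.94 RPKM. Arhgdib, a haematopoietic inhibitor that holds Rac2 in the cytosol, was the most abundant of the list. Arhgdib had 2032, 1967 and 1481 RPKM, a log2 ratio of -0.46 at 5 days beside -0.38 for Rac2. After length removal these were -0.28 and -0.82. Prkcd, a kinase of p47phox, had 116, 151 and 143 RPKM, and Syk, a kinase downstream of phagocytic receptors, had 117, 162 and 162.

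Transcription factors that are known to act on oxidase genes had medians of 0.20 (3 days) and 0.24 (5 days) over 15 of 17 genes, and at 5 days 1 passed 2-fold upwards and 1 downwards. With TMM the 5-day median was -0.04, with 0 upwards and 2, Irf1 and Cebpb, downwards, so the direction of the list depended on the scaling. Sfpi1, which encodes PU.1, had 193, 247 and 215 RPKM. Its log2 ratio at 3 days was 0.36, and at 5 days 0.16, or -0.15 with TMM. Irf1, an interferon-induced factor, had 91.3, 68.3 and 42.5 RPKM, and Irf8, a factor of monocytes, had 111, 113 and 172. Cebpb had 153, 143 and 90.7 RPKM, and Cebpe, the factor of late granulocyte differentiation, had 87.6, 97.6 and 72.2. Cux1, described as a repressor of Cybb, had 16.6, 25.4 and 33.4 RPKM. The 5-day ratios of these factors thus went in both directions, unlike those of the 5 subunits.

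The list for NADPH supply also holds enzymes that do not make NADPH themselves, such as those of the non-oxidative pentose phosphate pathway. Over 10 of its 11 genes the medians were 0.17 (3 days) and 0.05 (5 days), and none passed 2-fold at 5 days on the deposited scale. With TMM the 5-day median was -0.26, and 1, Taldo1, was at least 2-fold lower (-1.26). Taldo1, of the non-oxidative pentose phosphate pathway, had the lowest 5-day ratio of them, with 440, 348 and 227 RPKM. Pgd, which makes NADPH in the oxidative branch, had 216, 278 and 206 RPKM, highest at 3 days like Cybb and Ncf1. Oxidant-handling enzymes had medians of -0.14 and 0.01 over 20 genes, with 2 past 2-fold upwards and 2 downwards at 5 days. With TMM the 5-day median was -0.29, with 1 upwards and 6 downwards, and after length removal it was -0.05, with 1 upwards and 1 downwards. Mpo and Epx, the 2 past 2-fold upwards on the deposited scale, were also counted among the promyelocyte and the eosinophil markers, respectively. Mpo turns the hydrogen peroxide that arises from the burst into hypochlorous acid. Mpo had 435, 581 and 1237 RPKM, a log2 ratio of 1.51 at 5 days. Prdx5, a peroxidase that removes hydrogen peroxide, had 984, 720 and 371 RPKM.

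**Figure D4:**
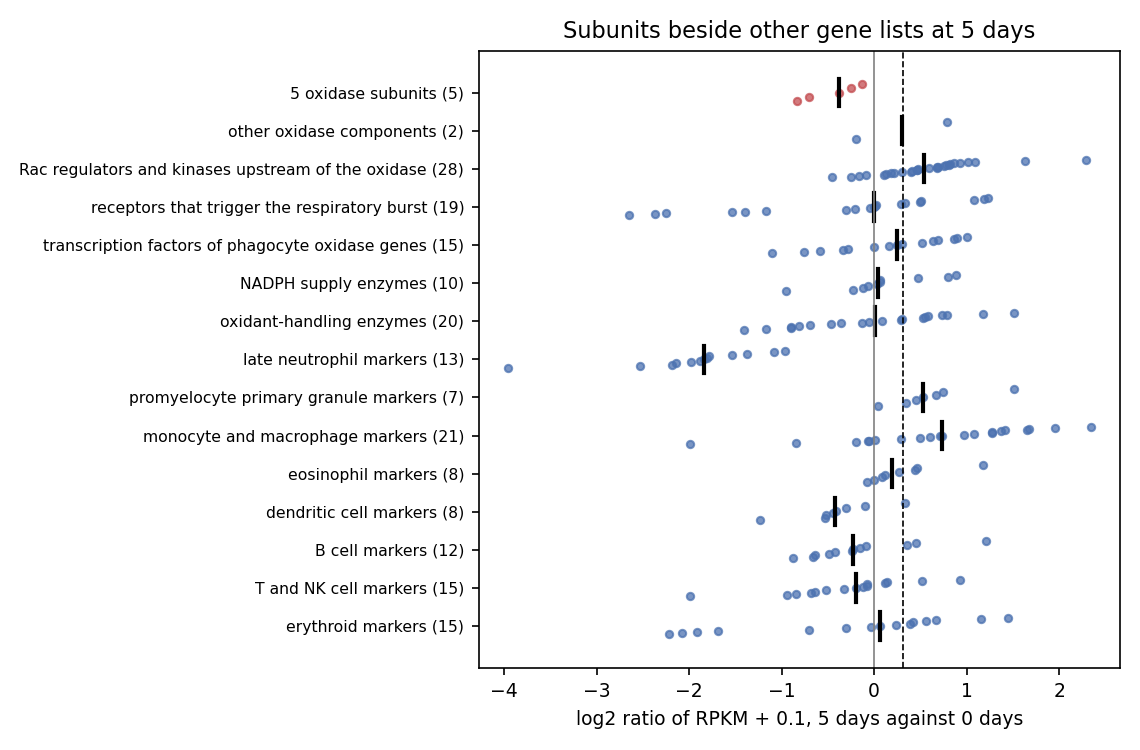
Log2 ratio of RPKM + 0.1 at 5 days against 0 days for genes of each list that averaged 1 RPKM or more (their number in parentheses). Points are genes, black bars are list medians and the dashed line is the median of all genes (0.31). The 5 subunits lie between -0.83 and -0.13, and the late neutrophil markers, median -1.84, lie to their left.

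Markers of the cell types that express the oxidase went in different directions at 5 days. Late neutrophil markers summed to 152559, 118081 and 42091 RPKM at 0, 3 and 5 days over the 15 of 16 genes with a row. All 13 that averaged 1 RPKM or more were lower at 5 days, 12 of them by 2-fold or more, and their median was -1.84 (-2.15 with TMM). At 3 days the median was -0.26, or 0.14 after length removal, so its direction there depended on the setting. S100a8 had 28717, 23982 and 7789 RPKM, and Retnlg had 6507, 4839 and 419. Of the markers that define the cell type, Ly6g had no row and Csf3r, the receptor for granulocyte colony-stimulating factor, was at 0.408, 0.953 and 0.327 RPKM. Of the 13 markers that averaged 1 RPKM or more, Padi4 was nearest to the subunits on the deposited scale, at -0.97 beside -0.83 for Ncf1. After length removal the 13 markers and the subunits overlapped, with Ncf1 at -1.21 below Ngp (-0.95) and S100a8 (-1.12). Monocyte and macrophage markers had a median of 0.74 at 5 days over 21 genes, 9 of which passed 2-fold upwards and 1 downwards. With TMM the median was 0.44, with 6 upwards and 2 downwards. These markers summed to 5874, 7498 and 6756 RPKM, of which Lyz2 alone held 3878, 5120 and 3898. F13a1 had 72, 177 and 365 RPKM, and Cd14 had 148, 99.3 and 36.9. Promyelocyte primary granule markers summed to 2404, 2267 and 3856 RPKM, and 1 of 7 was at least 2-fold higher at 5 days, with a median of 0.53 (0.22 with TMM).

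In bulk BM, fewer cells of a type and less RNA per cell cannot be told apart, and the part of the cell composition in the subunit levels was not tested. Of the other lineages, eosinophil markers, which belong to a cell type that also uses the oxidase, had a 5-day median of 0.20 and a summed level of 4132, 3716 and 4310 RPKM. Prg2 alone held 2771, 2202 and 2630 RPKM of this sum. Dendritic cell markers had a median of -0.43, B cell markers of -0.23, T and NK cell markers of -0.19 and erythroid markers of 0.07. Their levels summed to 1345, 938 and 896 RPKM for dendritic cells, 2518, 2049 and 1884 for B cells, 324, 215 and 299 for T and NK cells, and 5770, 4581 and 1923 for erythroid cells. Most of the erythroid sum was Hba-a1 (2253, 1591 and 596 RPKM), Hba-a2 (1304, 930 and 281) and Hbb-b1 (1696, 1387 and 527). Of the 15 erythroid genes, 8 were higher and 7 lower at 5 days on the deposited scale. With TMM the 5-day medians of these 5 lists, eosinophil to erythroid, were -0.11, -0.73, -0.54, -0.50 and -0.24.

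The genes most like each subunit were sought among 3928 genes averaging 20 RPKM or more, by the distance between the log2 ratios of deposited RPKM at 3 and at 5 days against 0 days, over 3 libraries. With so few libraries, a short distance is a description only. Cybb was nearest to Tbc1d8, Riok3 and Hbp1, at distances of 0.017 to 0.026. Cyba was nearest to Sdc4, Prdx6 and Serf2, at 0.0094 to 0.023, and Rac2 to Ogfrl1, Serpinb1a and Eif5, at 0.011 to 0.022. Ncf4 was nearest to Abhd5, Pqlc3 and Ccdc109a, at 0.013 to 0.027. Ncf1 had no neighbour as close, its nearest genes being Lyz1, Fbxl5 and Olfml2b at 0.050 to 0.096. Among the subunits themselves Cybb and Ncf4 were the closest pair, at 0.13, and Cyba and Ncf4 the farthest, at 0.89. This order holds for the deposited scale, since after length removal Cybb was at -0.16 and -0.89, next to Rac2 at -0.14 and -0.82, and Ncf4 was at 0.44 and -0.13. No subunit was among the 3 genes nearest to another.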

How the data were processed

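RNA of flushed BM cells was sequenced after 0, 3 and 5 days of LECT2 (Illumina TruSeq RNA kit with oligo(dT) beads and random hexamers, HiSeq 2000). According to the methods the authors used Cufflinks 1.0.3, and the submitters' processing notes name build mm8. The aligner is not given in the sources used here. The legend of the study speaks of BM mononuclear cells and the methods of flushed BM cells. The authors deposited 3 tables, each for 2 time points, with whole read counts per gene, the gene length in bases and the RPKM. Dividing the counts by length and by the total reads on listed genes gave back the deposited RPKM within 0.1%, except in 18 rows at 0 days and 14 at 3 days. Genes without reads, listed by the authors at 0.01 RPKM, were set to 0. The authors' own log2 ratios, P values and false discovery rates were not used. Of 17559 rows, 28 had no symbol and 17 of these were named from RefSeq by gene ID. Where a name was repeated, only its row of highest mean RPKM was used.

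Ratios were computed as log2 of RPKM + 0.1, which understates changes of low genes. Levels and ratios carry exact Poisson and Clopper-Pearson 95% intervals, and ratios of 2 subunits an exact conditional interval of the odds ratio. All cover counting error only. Genes past 2-fold were counted where 1 of the libraries reached 1 RPKM, and list medians were taken over genes averaging 1 RPKM or more. List genes were matched by symbol or by RefSeq gene ID. No p-value was computed, because each group was 1 library. Alternatives were TMM (edgeR 4.0.16), median-of-ratios (DESeq2 1.42.0) and scaling without the 100 genes with the most reads, removal of the length trend (lowess, span 0.3, statsmodels 0.14.6), pseudocounts of 1 and 0.01, the sum of all rows, no minimum or 5 RPKM, and thresholds of 1.5- and 4-fold. The count steps were tested on simulated data. Shared sequence was checked as 50-base words of GENCODE M21 transcripts, and promoters came from RefSeq (GRCm38.p6). Python 3.11.15 and R 4.3.3 were used.

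The members and the lists were chosen with earlier results of these data known. The genes named were the 5 subunits and the detected other oxidase components (1 component is not reported here), from each other list a selection of the 4 genes with the highest mean RPKM and the 2 with the largest 5-day ratio (mean of at least 5 RPKM), and the 3 nearest to each subunit. Csf3r, Padi4 and the genes that overlap or share sequence were named after their values were seen.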

Additional observations from a re-analysis of the deposited data

Results flagged for a closer look

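Subunits that lay on opposite sides of the 0-day library at 3 and at 5 days were looked at again. The log2 ratio of Cybb was 0.21 at 3 days and -0.25 at 5 days. For Ncf1 it was 0.094 and -0.83, for Ncf4 0.24 and -0.13, and for Rac2 0.030 and -0.38. Cyba was below the 0-day library at both times on the deposited scale, but at 0.04 and -0.30 after length removal. The difference between the times was not tested, because each time point was 1 library, and both ratios share the 0-day library. With TMM the 3-day value of Rac2 was -0.05, and after length removal those of Cybb, Ncf1 and Rac2 were -0.16, -0.03 and -0.14. Ncf4 lay on opposite sides under both of these settings, at 0.16 and -0.44 with TMM and at 0.44 and -0.13 after length removal.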

How the results depend on the processing

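The median log2 ratio of the 5 subunits at 3 days against 0 days, 0.09 on the deposited scale, was 0.0094 with TMM, 0.014 with median-of-ratios, 0.024 without the 100 genes with the most reads and -0.029 after length removal. At 5 days against 0 days (-0.38) it was -0.69, -0.68, -0.56 and -0.82 in the same order, and at 5 days against 3 days (-0.41) it was -0.64, -0.63, -0.52 and -0.69. The number of subunits at least 2-fold lower at 5 days against 0 days, 0 on the deposited scale, was 2 with TMM, 1 with median-of-ratios, 1 without the 100 genes, 1 after length removal and 2 at a 1.5-fold threshold, where 9.92%, 9.72%, 8.09%, 7.61% and 12.3% of all genes passed. Against 3 days it was 1 under each of these 5 settings, where 4.83%, 4.77%, 4.19%, 4.93% and 6.86% passed. TMM moved the median of all genes by -0.08 at 3 days and -0.30 at 5 days against 0 days. Each of the 3 scalings moved all 15 subunit ratios down and turned the sign of 1, Rac2 at 3 days. Length removal moved 3 up and 11 down and turned the sign of 4. The cause was not tested. The 15 ratios moved by less than their counting intervals under both pseudocounts, which are small beside subunit levels of 146 RPKM or more. The sum of all rows could not move them, since each subunit had exactly 1 row. No paired analysis was possible because each time point was 1 library. With 1 library per time point, differences between mice, injections and library preparations cannot be told apart from those between time points.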
